A study of Homo sapiens with 4 samples.

Results

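A set of 10 genes of the cellular response to low oxygen was followed in K562 cells, a line established from human erythroleukemia, after exposure to AC-1041. The 10 genes are HIF1A, VEGFA, ADM, BNIP3, BNIP3L, CA9, EGLN1, EGLN3, NDRG1 and SLC2A1, picked by the gene name in the array files. Each had 1 probe among the 14297 gene probes of the array, which carry 14257 gene names. The compound is a lipid droplet-binding thalidomide analog, a morpholine-substituted trifluorophthalimide, and the question asked of the arrays was which genes it changes in these cells. On each of 4 two-colour arrays, RNA of cells treated for 4 h was hybridised together with RNA of control cells, so every array gave 1 ratio of treated over control. The treated RNA was in Cy5 on arrays 1 and 2 and in Cy3 on arrays 3 and 4. The sample labels call the control cells untreated and give no dose, while the study's methods name 0.2% DMSO for the controls and 10 µM for AC-1041. The study's results instead describe the dose by its inhibitory effect on the cells, so the dose is not settled here. Both groups were otherwise the same cell line, and oxygen supply was no variable of the experiment. The methods speak of quadruplicates, but nothing says which RNA went on which array or whether each came from its own culture. The p-values of the main fit, which has a term for the dye orientation, measure the spread between arrays of the same orientation. That spread may be technical.

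The transcription factor HIF pairs an oxygen-regulated alpha subunit, such as the product of HIF1A, with a constant beta subunit. In oxygenated cells the prolyl hydroxylases EGLN1 and EGLN3 mark the alpha subunit for destruction through VHL, and when oxygen is short the subunit accumulates and switches on its target genes. The targets include secreted factors that act on blood vessels (VEGFA, ADM), the glucose transporter SLC2A1, the pH regulator CA9, the mitophagy receptors BNIP3 and BNIP3L, NDRG1, and the hydroxylase EGLN3 itself. Because HIF1A is controlled mostly at the level of its protein, its mRNA need not follow HIF activity. Several of the targets also respond to other stresses.

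HIF binds a short DNA core, written ACGTG or GCGTG, and the stretches of member promoters that hold it are printed here to show where the core lies in genes of this response. RefSeq promoters (GRCh38.p14, 250 bases before to 50 bases after each transcription start) were found for 7 of the 10 genes. Capitals mark every ACGTG or GCGTG on either strand, so that the reverse complement appears as CACGT or CACGC, and all sequences run 5′ to 3′ along the strand of the gene.
HIF1A (chr14:61695296-61695325, + strand, 217 to 188 bases before the start): ttggctgagagcgGCGTGggctggggtggg
ADM (chr11:10304959-10304988, + strand, 114 to 85 bases before the start): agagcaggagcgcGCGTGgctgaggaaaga
CA9 (chr9:35673897-35673926, + strand, 31 to 2 bases before the start): ctcgtttccaatgCACGTacagcccgtaca
EGLN1 (chr1:231422288-231422317, - strand, 30 to 1 bases before the start): ccgcggggccgtggtgtACGTGcagagcgc
BNIP3 (chr10:131982015-131982074, - strand, 151 to 92 bases before the start): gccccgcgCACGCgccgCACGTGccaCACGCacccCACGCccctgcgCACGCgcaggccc
The BNIP3 stretch holds 6 matches, of which the pair at CACGTG overlap as ACGTG on both strands. ACGTG was found for 3 of the 7 genes, against 21.4% of 35116 promoters of the same length, and GCGTG for 4 of the 7, against 36.5%. A gene counted if any of its promoter entries matched, while the shares count single entries, so the units differ. The SLC2A1 promoter matched GCGTG after its start, and neither the EGLN3 promoter nor the second of the 2 HIF1A entries held either form in this window. A match is a description of the letters and not a measured binding site.

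Across the 4 arrays the response genes did not move together after AC-1041. EGLN3 fell to 0.596 of its control level and was lower on all 4 arrays. ADM rose 1.35-fold and was higher on all 4 arrays. HIF1A and VEGFA had ratios above 0 on the log2 scale and SLC2A1 one below 0, but their ratios turned or vanished when the dyes were exchanged. BNIP3, BNIP3L and EGLN1 did not pass the test, and CA9 and NDRG1 were not well above background in either group.

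The ratios were fitted with limma over the 8852 probes whose spot stood well above background, in one channel or the other, on 2 or more arrays, with a term for the treatment and one for the dye orientation. Of the 10 genes, 8 passed this filter on dim probes. At an adjusted p under 0.05 (Benjamini-Hochberg over all 8852 probes), 5 of the 8 were called, against 37.4% of all probes. Of these 3 were higher in treated cells, against 24.3% of all probes, and 2 were lower, against 13%. Their median log2 ratio was 0.07, and that of all probes 0.017. The dye term was past the same threshold for 5 of the 8 genes and for 58.2% of all probes. Without the dye term limma called 0 of the 8 genes and 0.627% of 8937 probes (0.582% higher and 0.0448% lower). At an unadjusted p under 0.05, 2 of the 8 (ADM and EGLN3) passed in that fit, against 14.2% of all probes. There the difference between the orientations counts as error. With the term, only the disagreement inside each orientation enters the standard errors. No single gene over 4 arrays can go below p = 0.125 in an exact two-sided sign-flip permutation test.

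Between arrays of the same orientation the log2 ratios of all tested probes had correlations of 0.81 (arrays 1 and 2) and 0.94 (arrays 3 and 4), and between orientations they ran from -0.29 to -0.12. The negative control spots spread more on arrays 1 and 2 (SD 226 to 308) than on arrays 3 and 4 (27.8 to 40.5), so that the quality of an array and its dye orientation cannot be told apart. Of the 13 erythroid genes listed as markers of K562 cells, 12 had a probe and all 12 were well above background in both groups on at least 3 arrays. In the same fit 6 of the 12 markers were lower and 1 was higher in treated cells, against 13% and 24.3% of all probes. The summed normalized intensity of the 10 markers measured on every array ran from 321000 to 704000 in treated and from 339000 to 820000 in control cells. Of 8 lymphoid, stromal and epithelial markers 3 (MS4A1, COL1A1 and COL1A2) were not well above background on any array. Of the 5 tested 3 were lower, against the same 13% of all probes. The sum of the 8 ran from 27300 to 37300 in treated and from 29600 to 46500 in control cells. The part of these shifts in the results on the response genes was not tested, and in bulk RNA fewer cells of a type and less RNA per cell cannot be told apart.

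**Figure D1:**
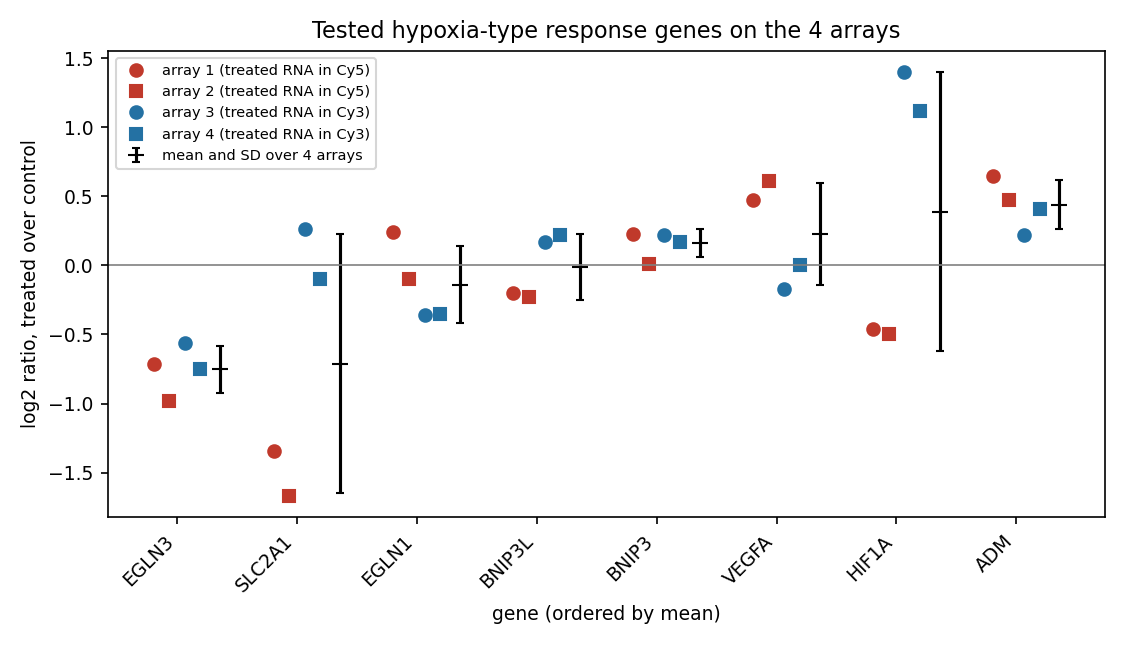
Log2 ratio of treated over control cells (vertical axis) for the 8 tested genes, with 1 point per array, red for treated RNA in Cy5 and blue for Cy3, and the mean and SD over 4 arrays as a black bar. EGLN3 lies below 0 and ADM above 0 on every array, while HIF1A and SLC2A1 separate by colour.

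The hydroxylases that sense oxygen came first. EGLN3, whose own transcription is raised by HIF, has its probe at chr14:33464392-33464451 of hg18. The mean spot intensity of EGLN3 in treated cells was 1106, 1496, 1126 and 1018 on arrays 1 to 4, and in control cells 1792, 2053, 1477 and 1664. The treated spot was the dimmer one on each array, whichever dye it carried. After normalization the log2 ratio of EGLN3 was -0.71, -0.98, -0.56 and -0.75, with a mean of -0.75 ± 0.17 (SD, n = 4 arrays). This is 1.68-fold higher in control cells, with a standard error of 0.075, a 95% confidence interval from -0.92 to -0.58 and a limma adjusted p of 0.00019. The mean was -0.84 over arrays 1 and 2 and -0.65 over arrays 3 and 4, and the dye term had an adjusted p of 0.31. Leaving out each array in turn gave -0.82 to -0.68, past the threshold each time, and without the dye term the limma adjusted p was 0.068.

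EGLN1, the main prolyl hydroxylase in most oxygenated cells, has its probe at chr1:229566598-229566657 of hg18. Its log2 ratio was 0.24, -0.10, -0.36 and -0.35 on arrays 1 to 4, above 0 on 1 array and below 0 on 3. The mean of EGLN1 was -0.14 ± 0.28 (SD, n = 4), with a 95% confidence interval from -0.32 to 0.03 and a limma adjusted p of 0.17. It passed the threshold only without array 1 (-0.23, adjusted p = 0.019).

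HIF1A encodes the oxygen-regulated subunit, and its probe lies at chr14:61284598-61284657 of hg18. Before normalization its spot intensity in treated against control cells was 5571 against 7333, 7748 against 7157, 14718 against 5351 and 11892 against 5853 on the 4 arrays in turn. The normalized log2 ratio of HIF1A was -0.46, -0.50, 1.40 and 1.12 in the same order. The Cy5 pair lay close together below 0 and the Cy3 pair above 0. The mean of 0.39 ± 1.01 (SD, n = 4) had a limma adjusted p of 0.0038, the dye term had one of 4e-05, and without the dye term the treatment had one of 0.75. The sign of the HIF1A ratio followed the dye orientation, and without array 3 the call was lost (adjusted p = 0.058).

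Of the secreted factors, ADM (adrenomedullin, a vasodilator peptide) has its probe at chr11:10285356-10285415 of hg18. Its spot intensity in treated cells was 1529, 2135, 1240 and 1209 on arrays 1 to 4, against 1005, 1124, 957 and 909 in control cells. The treated spot was the brighter one on every array. The ADM probe was dim, and in the control channel it was well above background on 3 arrays. The log2 ratio of ADM was 0.65, 0.47, 0.22 and 0.41, with a mean of 0.44 ± 0.18 (SD, n = 4), a 95% confidence interval from 0.28 to 0.60 and a limma adjusted p of 0.0019. It was 0.56 over arrays 1 and 2 and 0.31 over arrays 3 and 4, and the dye term had an adjusted p of 0.16. Leaving out each array in turn gave 0.39 to 0.48, past the threshold each time, and without the dye term the adjusted p was 0.19.

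VEGFA, the growth factor that drives vessel sprouting, has its probe at chr6:43860503-43860562 of hg18. Its log2 ratio was 0.47 and 0.61 on arrays 1 and 2 but -0.17 and 0.00 on arrays 3 and 4. The rise was thus seen with the treated RNA in Cy5 and not with it in Cy3. The mean of VEGFA was 0.23 ± 0.37 (SD, n = 4). Its limma adjusted p was 0.031, and the dye term had one of 0.0049. The call was lost without array 2 (adjusted p = 0.06), without array 3 (0.095), without array 4 (0.25) and without the dye term (0.64).

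**Figure D2:**
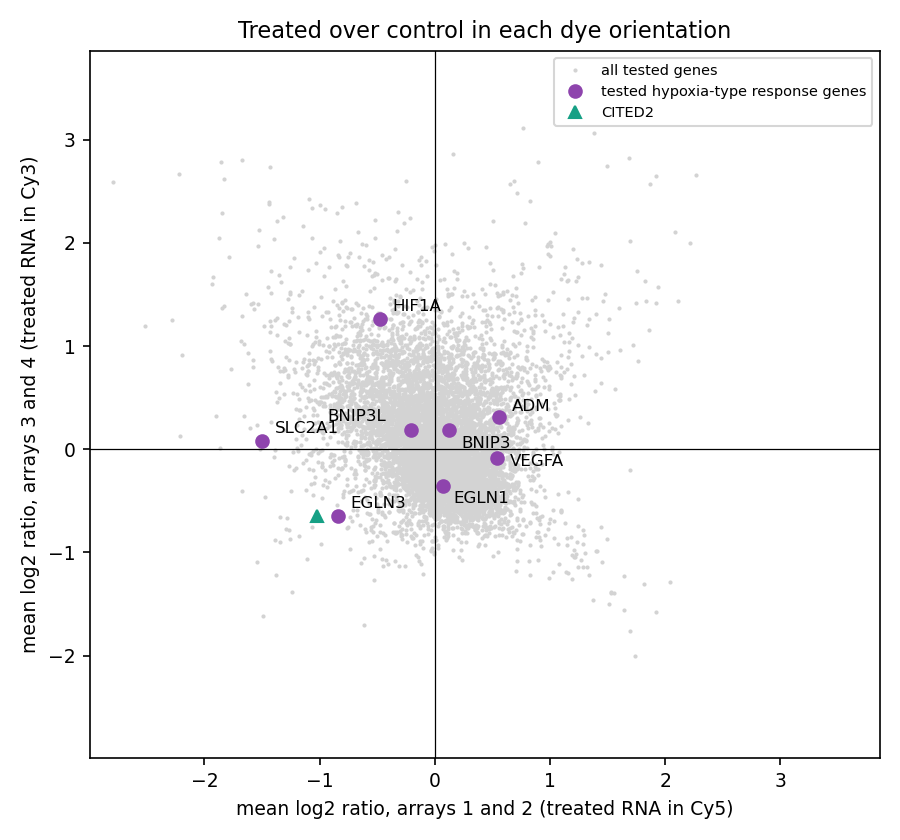
Mean log2 ratio with the treated RNA in Cy5 (horizontal axis, arrays 1 and 2) against that with it in Cy3 (vertical axis, arrays 3 and 4), for all tested genes (grey), the 8 tested response genes (purple) and CITED2 (green). EGLN3 (-0.84 and -0.65) and ADM (0.56 and 0.31) lie in quadrants where both orientations have the same sign, HIF1A (-0.48 and 1.26) does not, and SLC2A1 (-1.50 and 0.08) lies near the horizontal line through 0.

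SLC2A1, the glucose transporter of the red cell lineage and of many tumor cells, has its probe at chr1:43164461-43164520 of hg18. Its spot was bright on all arrays, at 18729, 16573, 21707 and 18212 in treated and 39348, 33226, 20680 and 25667 in control cells. The log2 ratio of SLC2A1 was -1.34 and -1.67 on arrays 1 and 2, and 0.26 and -0.10 on arrays 3 and 4. The low ratio came from the arrays with the treated RNA in Cy5, and the others lay on both sides of 0. The mean was -0.71 ± 0.94 (SD, n = 4), and its limma adjusted p was 0.00046 for the treatment, 0.00016 for the dye term, and 0.46 for the treatment without the dye term. Treated cells were at 0.353 of the control level by the Cy5 pair of arrays and at 1.06 by the Cy3 pair.

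BNIP3, a mitophagy receptor of the outer mitochondrial membrane, has its probe at chr10:133631301-133631360 of hg18. Its spot was bright, at 34283, 50260, 31638 and 30725 in treated and 24079, 29663, 35691 and 42712 in control cells. Before dye normalization the treated spot was the brighter one on arrays 1 and 2 and the dimmer one on arrays 3 and 4. After it, the log2 ratio of BNIP3 was 0.23, 0.01, 0.22 and 0.17, above 0 on all 4 arrays. The mean of BNIP3 was 0.16 ± 0.10 (SD, n = 4), with a 95% confidence interval from -0.002 to 0.31 and a limma adjusted p of 0.11. It passed the threshold only without array 2 (0.21, adjusted p = 0.037). BNIP3L, its relative that clears mitochondria from maturing red cells, has its probe at chr8:26324142-26324201 of hg18. The log2 ratio of BNIP3L was -0.20, -0.23, 0.17 and 0.22 on arrays 1 to 4. The Cy5 pair and the Cy3 pair lay on opposite sides of 0 by about the same amount, and the mean was -0.01 ± 0.24 (SD, n = 4). Its 95% confidence interval ran from -0.16 to 0.14, with a limma adjusted p of 0.91.

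Counted by sign, ADM and BNIP3 were above 0 and EGLN3 below 0 on all 4 arrays. These are 3 of the 8 genes. Among the 7991 tested probes measured on all arrays, 25.9% kept 1 sign, 16.7% were above 0 and 9.19% below 0 on each. In order of the mean log2 ratio the tested genes ran from EGLN3 through SLC2A1, EGLN1, BNIP3L, BNIP3, VEGFA and HIF1A to ADM. Neighbours in this order differed by less than the SD of one or both genes over the arrays.

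CA9, a carbonic anhydrase of the cell surface, and NDRG1, a stress-responsive cytoplasmic protein, could not be measured. The CA9 probe is placed at chr9:35667817-35669204 of hg18 and the NDRG1 probe at chr8:134331930-134335984, ranges wider than a probe. The spot of CA9 had an intensity of 235, 174, 147 and 117 in treated cells and of 300, 157, 135 and 96 in control cells on arrays 1 to 4. That of NDRG1 was 167, 155, 148 and 165 in treated and 181, 134, 126 and 150 in control cells. Each value lay under the 95th percentile of the negative control spots of its array and channel, which was 710 to 891 on arrays 1 and 2 and 165 to 209 on arrays 3 and 4. Feature Extraction marked neither gene as well above background on any array in either channel, and no fold change is given for them.

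**Figure D3:**
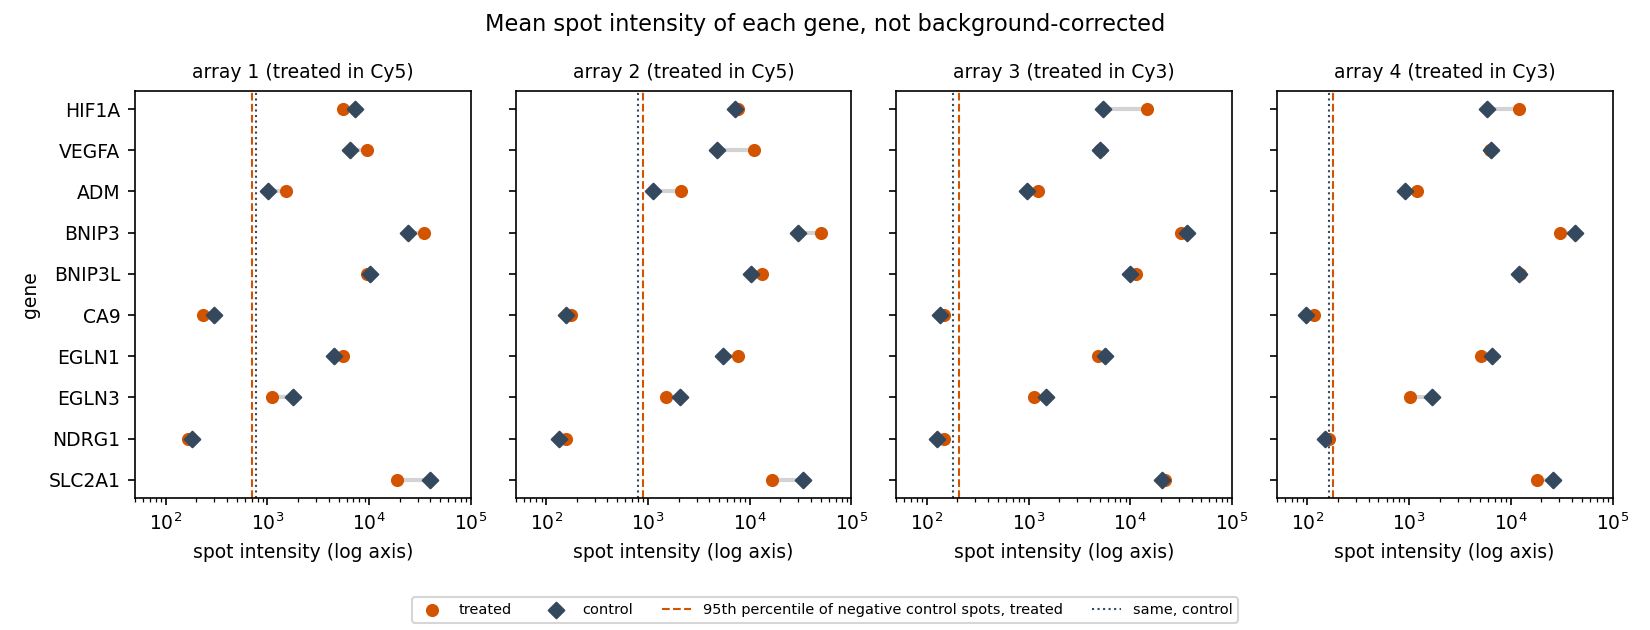
Mean spot intensity (horizontal log axis, arbitrary scanner units, neither background-corrected nor dye-corrected) of the 10 genes on each array, in treated (orange) and control cells (dark), with the 95th percentile of the negative control spots of each channel as a vertical line. CA9 and NDRG1 lie left of the lines on all 4 arrays, and EGLN3 and ADM are the tested genes closest to them.

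The pathway around these genes was followed in 78 further genes. The lists held oxygen sensors and HIF subunits, glycolysis, secreted factors and receptors, other HIF targets, and genes sharing a family or name root with members. Of the 78, 71 had a probe and 51 were tested. At an adjusted p under 0.05, 13 of the 51 were higher and 6 lower in treated cells, which is 25.5% and 11.8%, near the 24.3% and 13% of all probes. Their median log2 ratio was 0.01. Of the 19 genes past the threshold, 8 were above 0 and 2 below 0 on all 4 arrays. These 10 are 19.6% of the 51, near the 19.1% of all probes that were called with 1 sign on all arrays. Without the dye term 0 of 52 genes passed in limma. At an unadjusted p under 0.05, 10 of the 52 did, against 14.2% of all probes.

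Among the 13 oxygen sensors and HIF subunits, all tested, 2 were higher and 3 lower, against 24.3% and 13% of all probes. CITED2, a nuclear protein that competes with HIF for the coactivator EP300, had log2 ratios of -0.91, -1.12, -0.63 and -0.68 on arrays 1 to 4. It was low on every array, with a mean of -0.84 ± 0.23 (SD, n = 4) and a limma adjusted p of 7.5e-05 (0.067 without the dye term). EP300 itself, the acetyltransferase that HIF recruits to its targets, had 0.02, 0.22, 0.73 and 1.03, all above 0, with an adjusted p of 0.0015 (0.34 without the dye term). The rise of EP300 was larger with the treated RNA in Cy3 (mean 0.88, against 0.12 in Cy5), and its dye term had a limma adjusted p of 0.0034. The other 3 genes past the threshold, which the naming rule left out and which were picked after their values were seen, changed sign with the dye orientation or between arrays. They were VHL, the recognition subunit of the ligase that removes HIF (0.31 ± 0.87), EPAS1, the alternative alpha subunit (-0.38 ± 0.76), and ELOC, which binds VHL (-0.29 ± 0.63), each with its SD over 4 arrays. ARNT, the beta subunit, had a log2 ratio of 0.00 ± 0.55 (adjusted p = 0.97), and EGLN2 one of 0.09 ± 0.20 (adjusted p = 0.34).

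Glucose uptake and glycolysis, the best known metabolic arm of the HIF response, had 17 tested genes with log2 ratios from -0.19 to 0.27 and a median of 0.03. Of these genes 2 were higher (PFKFB4 and PDK1) and 1 was lower (PGK1), named after their values were seen. The shares over all probes were 24.3% higher and 13% lower. None of the 17 had the same sign on all 4 arrays. PDK1 had -0.26 and 0.05 on arrays 1 and 2 and 0.56 and 0.71 on arrays 3 and 4. LDHA, which makes lactate, had a mean of -0.11 ± 0.21 (adjusted p = 0.34), and the second glucose transporter SLC2A3 one of -0.04 ± 0.13 (adjusted p = 0.71).

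Of 18 secreted factors and receptors only 6 passed the filter on dim probes. Of these 3 were higher and 0 lower, against 24.3% and 13% of all probes, and without the dye term limma called 0. CXCR4, the receptor of the chemokine CXCL12, had log2 ratios of 0.91, 1.38, 0.63 and 0.92, a mean of 0.96 ± 0.31 (SD, n = 4) and a limma adjusted p of 0.00016 (0.067 without the dye term). The CXCR4 probe was well above background on 3 arrays in treated and on 2 in control cells. PGF, a relative of VEGFA that binds one of its receptors, had 0.41, 0.71, 0.43 and 0.28 (adjusted p = 0.0022, and 0.17 without the dye term). The PGF probe too was well above background on 3 arrays in treated and on 2 in control cells. STC2, a secreted glycoprotein also raised by endoplasmic reticulum stress, had 0.44, 1.35, 0.02 and 0.35 (adjusted p = 0.014, and 0.38 without the dye term). The rise of STC2 was larger with the treated RNA in Cy5 (mean 0.89, against 0.19 in Cy3). All 3 genes were above 0 on every array. VEGFC, the receptors FLT1, KDR and NRP1, and the adrenomedullin receptor CALCRL with its partner RAMP3 did not pass the filter, so that among the receptor genes of VEGFA and ADM on the list RAMP2 alone was tested (-0.09 ± 0.24, adjusted p = 0.41).

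Of 19 further HIF targets, 10 were tested. Of these 4 were higher and 0 lower, against 24.3% and 13% of all probes, and without the dye term limma called 0. P4HA2, a collagen prolyl hydroxylase, had log2 ratios of 0.39, 0.85, 0.68 and 0.88, with a mean of 0.70 ± 0.23 (SD, n = 4) and a limma adjusted p of 0.00054 (0.087 without the dye term). MXI1, which opposes MYC, had 0.25, 0.46, 0.63 and 0.87 (adjusted p = 0.00075). INSIG2, which retains the sterol sensor in the endoplasmic reticulum, had 0.01, 0.31, 0.79 and 0.95 (adjusted p = 0.0012). The rises of MXI1 and INSIG2 were larger with the treated RNA in Cy3. The fourth gene, PLOD1, a lysyl hydroxylase named after its values were seen, was above 0 on arrays 1 and 2 and below 0 on arrays 3 and 4. P4HA1, the sister subunit of P4HA2, had a mean of 0.15 ± 0.10 (adjusted p = 0.10). DDIT4, an inhibitor of mTOR signalling, had outlier spots on arrays 1 and 3, so that it was not in the fit with the dye term and was 1 of the 10 genes at an unadjusted p under 0.05 without it. Its remaining log2 ratios were 1.78 (array 2) and 0.70 (array 4), and it too was picked after its values were seen.

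**Figure D4:**
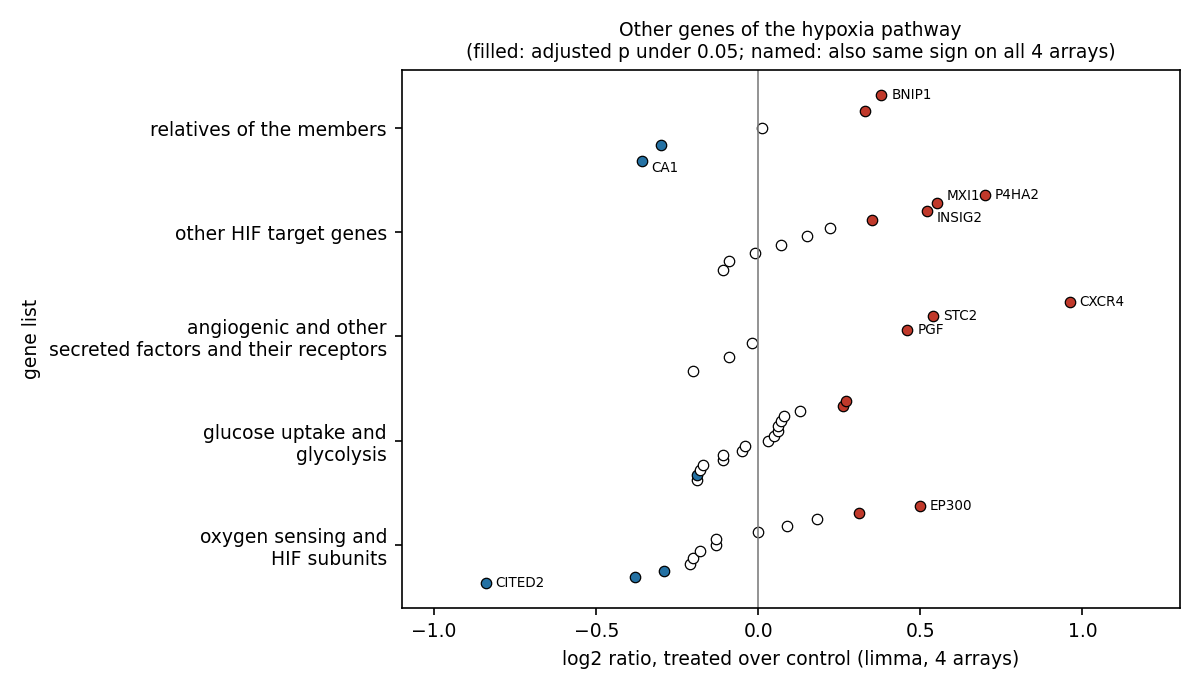
Log2 ratio of treated over control cells (horizontal axis) of the 51 tested pathway genes, 1 row of points per list, filled red (higher) or blue (lower) at an adjusted p under 0.05 and open otherwise. Named genes also had the same sign on all 4 arrays, and the points of glycolysis lie between -0.19 and 0.27.

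The last list held genes that share a family or only a name root with members. Of its 5 tested genes, 2 were higher and 2 lower, against 24.3% and 13% of all probes. CA1, the abundant carbonic anhydrase of red cells, had log2 ratios of -0.17, -0.55, -0.43 and -0.29, a mean of -0.36 ± 0.16 (SD, n = 4) and a limma adjusted p of 0.009. BNIP1, a membrane fusion protein of the endoplasmic reticulum, had 0.42, 0.59, 0.37 and 0.14 (adjusted p = 0.0043). NDRG2 (-0.30 ± 0.39) and BNIP2 (0.33 ± 0.31), named after their values were seen, passed the threshold but did not have the same sign on all arrays. NDRG3 had a mean of 0.01 ± 0.30 (adjusted p = 0.92).

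Among all tested genes, those whose 4 log2 ratios lay closest to EGLN3, the tested member with the largest change, were AGPAT5, GLYATL1, ADORA2B, CITED2 and CCND1. Their root-mean-square difference from EGLN3 over the 4 arrays was 0.099, 0.117, 0.127, 0.136 and 0.137 on the log2 scale. ADORA2B, an adenosine receptor, had -0.85, -0.85, -0.43 and -0.65 on arrays 1 to 4, and CCND1 (cyclin D1) had -0.56, -0.94, -0.79 and -0.71. With 4 arrays of 1 comparison this measure ranks genes by the size of their ratios and says nothing of shared control.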

How the data were processed

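Total RNA of treated and control K562 cells was amplified, labelled with Cy5 or Cy3 and hybridised to 8-plex Agilent arrays. The authors quantified the scans with Agilent Feature Extraction (version 9.5.1.1 per the file headers) and deposited, for each spot, its raw mean intensity beside that of its local background. The deposited files also hold processed intensities (background and dye corrected by that software) and the log10 ratio, Cy5 over Cy3, computed from these. The authors' series table holds log10 ratios, and in each array's column 99.9% to 100% of values matched that array's own ratio to within 0.001 once turned to treated over control. The median of each of its columns was 0, and further centring is not given in the sources used here.

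Intensities were background-corrected with normexp (offset 50), control spots and outlier spots (1.57% to 8.08% of probes per array) were excluded, and loess (span 0.3) was run within arrays. No spot was saturated. Ratios on the log2 scale were modelled by treatment and dye orientation in limma 3.58.1 (R 4.3.3). Probes were named by transcript accession in a RefSeq table of GRCh38.p14 (12002 of 14297 probes), otherwise by symbol. Probe positions on hg18 were taken as deposited. The brightest probe stood for a gene that had several. The fit was tested on simulated ratios of the 8852 probes, in which 200 probes were given a log2 ratio of 1. Of these 89.5% were called, and 2.72% of calls were false. The planted ratio was larger than the change of any tested member, and the arrays themselves gave calls for 37.4% of probes. These 2 rates therefore do not describe the calls reported here.

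The members and gene lists were chosen with earlier results of these data known. The genes named are the 10 members, listed pathway genes past the threshold with 1 sign on all arrays, and the 5 genes closest to the member with the largest change. Other listed genes were named after their values were seen, and some marker genes are not reported here by name. All arrays carry 1 group label, so no replicate block could be fitted. The alternatives were other background corrections and normalizations, stricter and absent filters on dim probes, the series table, a threshold of 0.01, no dye term, the mean of a gene's probes, and each array left out in turn. The number of arrays limits the precision.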

Additional observations from a re-analysis of the deposited data

How the results depend on the processing

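All alternatives were those listed in the methods above. The dye term changed most. Without it 0 members were higher and 0 lower, 0 and 0 of the other pathway genes, and 52 and 4 of all probes. EGLN3 and ADM lost their calls too (limma adjusted p of 0.068 and 0.19). Their own dye terms had not passed (0.31 and 0.16). Of the 8 tested members EGLN3, SLC2A1 and EGLN1 stayed below 0, and ADM, HIF1A, VEGFA and BNIP3 above 0, in every setting run. EGLN3 ranged from -0.95 to -0.65 and passed the threshold in all but the fit without the dye term. BNIP3L turned to 0.05 with median centring and to 0.0029 without replicate 3 (-0.02 to 0.0029 with each array left out in turn), and no setting put it past the threshold.

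The stricter threshold of 0.01 left 1353 probes higher, 468 lower and 3 other pathway genes lower. Requiring every channel of every array to be well above background tested fewer probes, of which 1342 were higher, with 8 other pathway genes higher and ADM not tested. Median centring gave 596 probes lower, and 79.9% of calls were then higher, against 65.2% with loess. Without each array in turn, 1008 to 2590 probes were higher and 283 to 1469 lower, 1 to 3 members were higher and 2 to 3 lower, and 7 to 15 other pathway genes were higher and 1 to 10 lower. The lowest probe counts came without array 4, and ADM was the 1 member called higher without array 3. The cause was not tested for median centring. Without the filter on dim probes CA9 and NDRG1 entered the limma fit and neither passed, with adjusted p of 0.53 and 0.21. No paired analysis was possible because the ratios within arrays already pair treated with control RNA, which leaves no groups to pair by replicate number. None of 18 genes examined had 1 array far from the others by Dixon's criterion for 4 values. With so few values only a gross outlier passes this criterion. Where the values split into 2 pairs by dye orientation, as for HIF1A, it cannot be met, so no conclusion is drawn from it. Background on arrays 1 and 2 limits the dim probes, ADM, CXCR4 and PGF among them.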
